A study of Homo sapiens with 6 samples.

Results

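Complement is a cascade of plasma and tissue proteins in which the cleavage of C3 into C3a and C3b leads to the marking of surfaces, the recruitment of leukocytes and the assembly of the membrane attack complex. Host cells hold it in check with soluble regulators, which act in fluid and on surfaces, and with membrane regulators, which protect the cell that carries them. The retinal pigment epithelium (RPE) lies beside the choroidal circulation and makes several of these regulators itself, and genes of the cascade are among the best known loci for age-related macular degeneration. The genes described here are 7 regulators of the 37902 genes in the table of normalised counts, named by their role as complement regulators, and the rule for choosing them set no threshold on their values. The soluble regulators were CFHR3, CFI, SERPING1 and CLU, and the membrane regulators were CD46, CD55 and CD59.

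The 6 libraries came from ARPE-19, an established human RPE cell line, and all were labelled as kept under regular maintenance and taken at day 3. WT was the parental line, with 3 biological replicates. POLDIP2 KO, also with 3, was obtained from it with lentiviruses carrying SpCas9 and an sgRNA to the POLDIP2 coding sequence, selected with puromycin and expanded, so it is a single transduced line and no separate clones were compared. WT was not transduced, and loss of POLDIP2, transduction and selection therefore cannot be told apart.

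The libraries held 31532797 to 45795509 reads as recovered from the table. POLDIP2, the targeted gene, was at 4515 ± 516 normalised counts in the WT libraries and 1151 ± 92.8 in those of POLDIP2 KO (SD, n = 3 each), and it fell by 1.97 on the log2 scale (limma, adjusted p = 0.00961). In all, limma called 25 of the 14684 genes with a mean of at least 10 normalised counts, at an adjusted p (Benjamini-Hochberg) below 0.05 and a fold change over 1.5, which is 0.17% of the genes tested. Of 18 RPE markers 14 passed this filter, led by the keratins KRT8 and KRT18. RPE65 and TTR were at 0 in all 6 libraries, and TYR and DCT did not exceed 2.98 and 3.97 normalised counts. Some markers that passed were low, such as TYRP1 at 1.04 to 27.1 and LRAT at 22.1 to 106. The transcription factors MITF and OTX2 were at 2955 to 4503 and 574 to 883. Hepatocytes and leukocytes also make complement proteins. The hepatocyte marker ALB did not exceed 2.01 normalised counts and the leukocyte marker PTPRC, which was at 0 in WT, did not exceed 6.95, but CD68, a lysosomal protein, was at 1680 to 2187 and SERPINA1, a secreted protease inhibitor, at 111 to 191. The summed level of 12 leukocyte markers, of which 4 passed the filter, was 1767 to 2284 in WT and 1902 to 2192 in POLDIP2 KO, and that of 8 hepatocyte markers, of which 2 passed, was 159 to 228 and 211 to 242. CD68 made up most of the first sum and SERPINA1 most of the second, and the part of such cells in the results was not tested.

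Of the 7 regulators 6 passed the filter, and 0 were called by limma, against 0.17% of all genes tested. At an unadjusted p below 0.05, limma placed CFI and CD55 higher in POLDIP2 KO, 2 of the 6 tested members, where 3.0% of all genes tested were so placed. CFI was the only tested member whose lines did not overlap, which 5.46% of tested genes did in the same direction. CFI and CD55 were also higher in POLDIP2 KO in all 3 pairs of same-numbered libraries (17.0% of tested genes) and SERPING1 was lower in all 3 (15.7%). The median log2 fold change of the tested members was 0.15, beside −0.00029 for all genes tested. In bulk RNA, fewer cells that express a gene and less RNA per cell cannot be told apart.

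**Figure D1:**
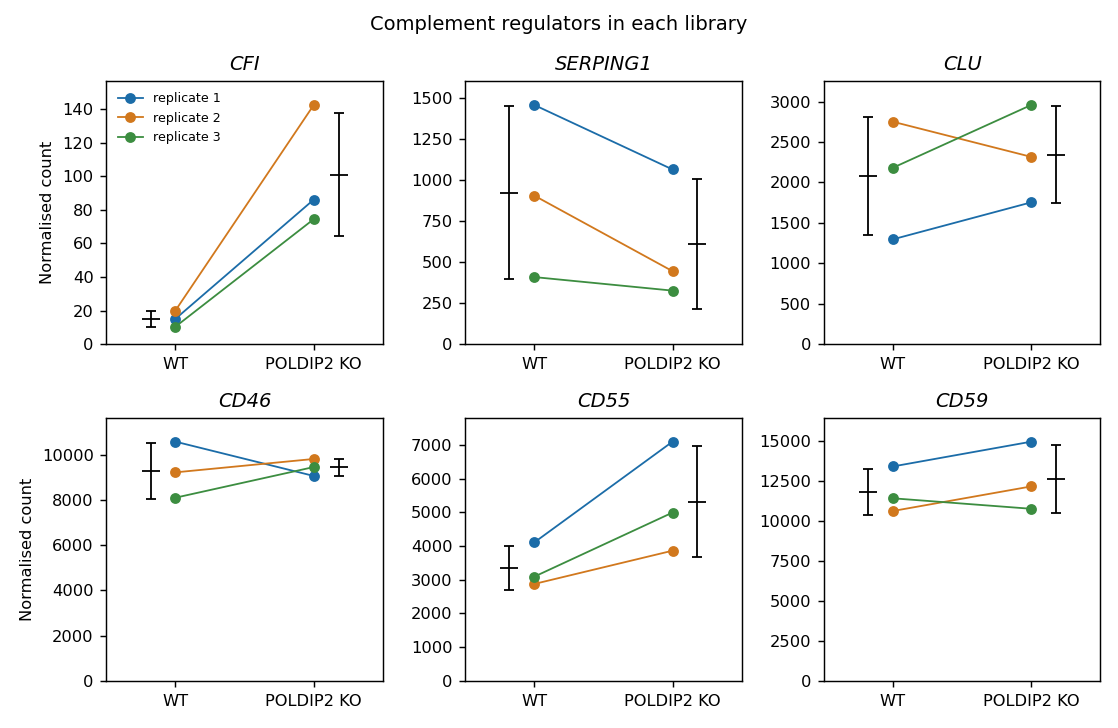
Normalised counts of the 6 regulators that passed the filter (vertical axes, linear and starting at 0, each gene on its own scale) in WT and POLDIP2 KO; lines join libraries with the same replicate number, and the black bars give the mean ± SD of 3 libraries. WT and POLDIP2 KO are apart for CFI, the POLDIP2 KO end is the higher one in each of the 3 pairs for CD55 and the lower one in each for SERPING1, and the pairs differ in direction for CLU, CD46 and CD59.

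CFI encodes complement factor I, the serine protease that cuts C3b and C4b once a cofactor has bound them. It lies on the minus strand of chromosome 4 (GRCh38, 109731008 to 109802150). In replicates 1, 2 and 3 of WT its normalised counts were 15.1, 20.1 and 10.4, and in the same replicates of POLDIP2 KO they were 86.1, 142 and 74.5. Each POLDIP2 KO library was above each WT library. These values rest on few reads, 16, 20 and 10 in WT and 70, 175 and 75 in POLDIP2 KO. Within the pairs of replicates 1, 2 and 3 the difference in log2(normalised count + 1) was 2.43, 2.77 and 2.72, so the pairs were closer to each other than the libraries of a line were. The fold change on that scale was 6.24, with a 95% confidence interval of 3.22 to 12.1, but CFI was not called (limma, adjusted p = 0.0862). By p it ranked at position 52 of the genes tested. DESeq2 on the recovered reads, which called 1.69% of the genes tested, called CFI (adjusted p = 2.62e-05), and the quasi-likelihood test of edgeR, which called 0.116%, did not (adjusted p = 0.120).

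The CFI row does not hold all the signal of its exons. An annotated read-through gene without a symbol, ENSG00000285330 (chromosome 4, minus strand, 109713916 to 109801999), joins exons of CFI to exons of its downstream neighbour PLA2G12A, a secreted phospholipase A2. Of its 2385 exonic bases, 1562 (65.5%) are exonic in CFI and 823 in PLA2G12A. A read from the shared bases fits either gene, and Salmon divides such reads by estimate. The read-through gene had normalised counts of 35.9, 33.1 and 13.6 in WT and of 105, 132 and 147 in POLDIP2 KO. All 3 POLDIP2 KO libraries were above the WT libraries here too, and in 5 of the 6 libraries more counts had gone to this row than to the CFI row, KO replicate 2 being the exception.

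Adding both rows gave normalised counts of 51.0, 53.2 and 24.0 in WT and of 191, 274 and 221 in POLDIP2 KO. The mean of the sum was 42.7 ± 16.2 in WT and 229 ± 42.3 in POLDIP2 KO (SD, n = 3), beside 15.2 ± 4.81 and 101 ± 36.4 for the CFI row. The sum can also hold reads from the bases that the read-through gene shares with PLA2G12A, and their part was not tested. The lines stayed apart in the sum. Its log2 fold change was 2.46, with a 95% confidence interval of 1.61 to 3.31, beside 2.64 (1.69 to 3.59) for the CFI row alone, and its adjusted p by limma was 0.0780. For the read-through row by itself the log2 fold change was 2.27 (limma, adjusted p = 0.160). The CFI row held 29.6% to 51.9% of the sum over the 6 libraries, and these shares overlapped between the lines. PLA2G12A was at 1530, 1058 and 676 in WT and at 1145, 1188 and 821 in POLDIP2 KO. Its lines overlapped, and its log2 fold change was 0.01 (95% confidence interval −0.71 to 0.73).

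The annotated start of the read-through gene, position 109801999, is also the RefSeq start of CFI, though GENCODE extends the first exon of CFI to 109802150, into the bases before it. The start-site windows of 4 of the 7 members were matched by symbol in a RefSeq table on GRCh38.p14, and the 250 bases before each start were searched on both strands for the NF-kB consensus, TTGCNNAA (C/EBP), CCAAT and TATAAA. Among 35116 such windows these were present in 5.21%, 9.05%, 32.0% and 10.7%. Given next are the bases of the windows of CFI, CD55 and CD59 (for CD59, of the most upstream of its RefSeq starts) that lie in no annotated exon, written 5′ to 3′ on the strand of the gene with matches in capitals. They are shown because CFI and CD55 were higher in every pair and CD59, the member with the highest normalised counts, was not.
CFI, chr4:109802151-109802249, minus strand: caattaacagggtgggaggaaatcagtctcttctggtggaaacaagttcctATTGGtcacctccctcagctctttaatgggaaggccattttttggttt
CD55, chr1:207321428-207321518, plus strand: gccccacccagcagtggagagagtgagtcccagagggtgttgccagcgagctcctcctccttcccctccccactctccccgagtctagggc
CD59, chr11:33736480-33736729, minus strand: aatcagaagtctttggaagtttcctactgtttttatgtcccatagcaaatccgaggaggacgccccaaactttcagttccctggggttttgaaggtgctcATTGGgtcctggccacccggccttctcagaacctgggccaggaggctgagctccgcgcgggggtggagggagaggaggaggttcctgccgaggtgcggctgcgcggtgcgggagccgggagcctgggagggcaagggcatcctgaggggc

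In the CFI window the capitals mark ATTGG, the CCAAT box read on the other strand, at −199 to −195 relative to the start. The full CFI window of 250 bases held no other match and had a GC content of 38%, against a median of 58% over all windows. The CD55 window, at 64% GC, held none of the 4 motifs. The CD59 window, at 62% GC, held an inverted CCAAT box at −150 to −146. Among the windows not shown, the 2 of CD46, from neighbouring starts, held one inverted CCAAT box, at −30 to −26 or −46 to −42 by start, and the window of the CD59 start at 33722949 held an inverted CCAAT box and 2 matches to TTGCNNAA. A match in these windows is a description of letters, and binding was not measured.

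SERPING1 encodes the C1 inhibitor, which inactivates the C1r and C1s proteases at the start of the classical pathway (chromosome 11, plus strand, 57597387 to 57619171). Its normalised counts were 1459, 906 and 409 in WT and 1065, 445 and 327 in POLDIP2 KO. In both lines replicate 1 was highest and replicate 3 lowest, and the lines overlapped over most of their range. Within a line the highest library was 3.56 times the lowest in WT and 3.26 times in POLDIP2 KO, and the spread between libraries of a line (pooled SD of 0.90 on the log2 scale) was larger than that of 93.0% of the genes tested. The log2 fold change was −0.60, with a 95% confidence interval of −1.94 to 0.74 (limma, adjusted p = 0.9998). Comparing same-numbered libraries, POLDIP2 KO was at 0.730, 0.491 and 0.798 times WT. Blocking on the replicate number narrowed the interval to −1.03 to −0.17, and SERPING1 was still not called (limma, adjusted p = 0.283).

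CLU encodes clusterin, a secreted chaperone that also keeps the terminal complement proteins from inserting into membranes (chromosome 8, minus strand, 27596917 to 27614700). Its normalised counts were 1297, 2750 and 2182 in WT and 1754, 2316 and 2958 in POLDIP2 KO. Replicate 1 was lowest in both lines, and the lines overlapped. POLDIP2 KO was higher in the pairs of replicates 1 and 3, at 1.35 and 1.36 times WT, and lower in replicate 2, at 0.842 times. CLU was not called, with a log2 fold change of 0.21 and a 95% confidence interval of −0.51 to 0.93 (limma, adjusted p = 0.9998). Without WT replicate 1 the difference turned to −0.10.

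CFHR3, a relative of the main fluid-phase regulator of the alternative pathway (chromosome 1, plus strand, 196774813 to 196795407), was at 0 normalised counts in 5 libraries and at 0.993, a single read, in POLDIP2 KO replicate 3. It was under the filter and was not tested. The 0 of 111690226 reads in WT allow a share of up to 2.69e-06% (3 reads), and the 1 of 115621595 reads in POLDIP2 KO a share of up to 4.82e-06% (upper bound of the exact 95% Clopper-Pearson interval). These limits were set by unlike rules, so they do not compare the lines, and they cover counting error only. Genes of this family resemble each other closely in sequence, so the assignment of single reads is uncertain.

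CD46, or membrane cofactor protein, is the cofactor with which factor I cuts C3b and C4b on the cell's own surface (chromosome 1, plus strand, 207752037 to 207795513). Its normalised counts were 10577, 9219.9 and 8099 in WT and 9060.5, 9812 and 9455 in POLDIP2 KO. The 3 POLDIP2 KO libraries all lay inside the range of WT. The log2 fold change was 0.03 and the 95% confidence interval from −0.26 to 0.32, or 0.836 to 1.25-fold, the tightest among the members tested. Its spread between libraries of a line was larger than that of only 22.9% of the genes tested. The sign of so small a difference depended on the scaling and on WT replicate 3, since quantile normalisation gave −0.000636 and leaving that library out gave −0.07.

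CD55, or decay-accelerating factor, takes apart the C3 convertases that form on the cell (chromosome 1, plus strand, 207321519 to 207386804). Its normalised counts were 4107, 2876 and 3092 in WT and 7097, 3863 and 4994 in POLDIP2 KO. The lines overlapped in that WT replicate 1 exceeded POLDIP2 KO replicate 2. Against the library with the same number, however, POLDIP2 KO was 1.73, 1.343 and 1.62 times as high in replicates 1, 2 and 3, and in both lines replicate 1 was the highest and replicate 2 the lowest. The log2 fold change was 0.64, with a 95% confidence interval of 0.07 to 1.20 and an unadjusted p of 0.0333 by limma, and CD55 was not called (adjusted p = 0.687). Blocking on the replicate number, the interval was 0.38 to 0.89 and the adjusted p by limma 0.101. The call depended on the tool in the blocked comparison, where DESeq2 on recovered reads, which then called 2.67% of the genes tested, gave an adjusted p of 2.25e-05 and edgeR, which called 0.0341%, gave 0.121.

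CD59, or protectin, binds C8 and C9 and blocks the membrane attack complex (chromosome 11, minus strand, 33703010 to 33736479). Its normalised counts were 13410.0, 10625 and 11418 in WT and 14959, 12162 and 10762 in POLDIP2 KO. The lines overlapped, and POLDIP2 KO was 1.12 and 1.14 times as high as WT in replicates 1 and 2 and 0.943 times in replicate 3. The log2 fold change was 0.09, with a 95% confidence interval of −0.28 to 0.46 or 0.825 to 1.37-fold (limma, adjusted p = 0.9998), and it turned to −0.04 without POLDIP2 KO replicate 1. CD59 also has an annotated read-through gene, ENSG00000284969, but that row held only 41.1 to 79.4 normalised counts and left the CD59 row with 99.3% to 99.7% of the sum.

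**Figure D2:**
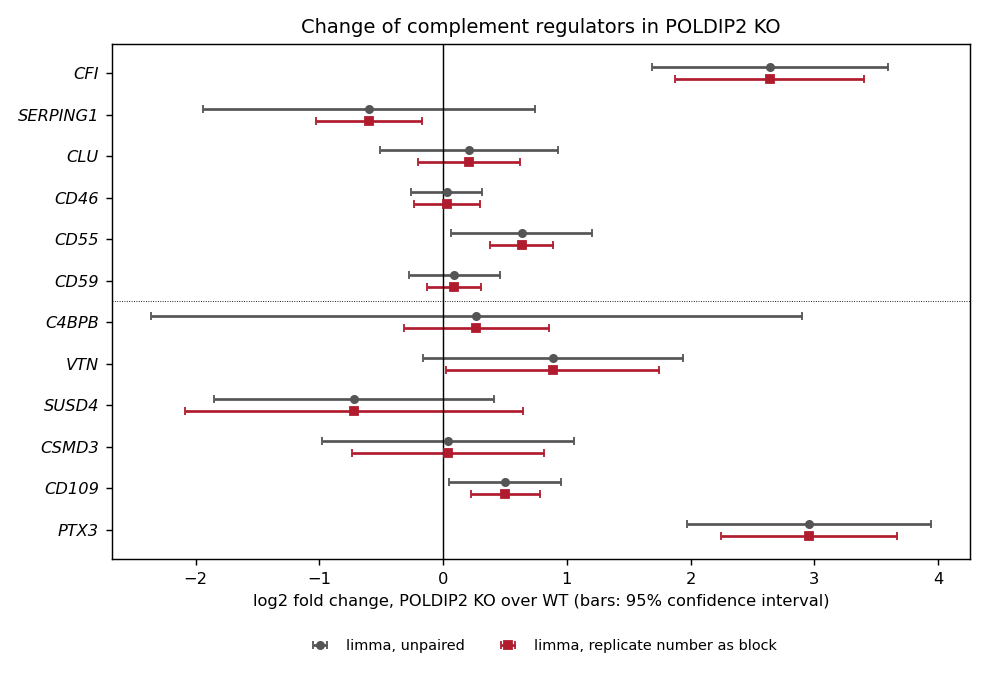
Log2 fold changes, POLDIP2 KO over WT (horizontal axis), of the 6 members tested and, under the dotted line, of 6 genes from the list of other regulators and cofactors. The bars are 95% confidence intervals by limma, in grey without and in red with the replicate number as a block, for 3 libraries a line. The red bar is shorter than the grey one for each member, lies above 0 for CFI and CD55 and below 0 for SERPING1.

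Levels were compared between genes per kilobase of exon, with the union of a gene's annotated exons as its length. That length was 10557 bases for CD59 and 15505 for CD46. The lengths of the transcripts in use in these cells were not known. The order of the genes and the membrane shares given below hold for the union lengths only. In WT, CD59 was highest, at 1119 ± 136 normalised counts per kb, which was above 91.0% of the genes tested. CD46 followed at 600 ± 80.0, then CLU at 330 ± 117 and CD55 at 327 ± 64.1, SERPING1 at 128 ± 72.6 and CFI at 2.86 ± 0.905 (SD, n = 3 each). Of these neighbours, each taken by its own row, only CLU and CD55 overlapped in range, in both lines, so their order is not set by these data. CFI was above only 3.04% of the genes tested in WT. In POLDIP2 KO its own row was at 19.0 ± 6.84 per kb, below each SERPING1 value of that line, the lowest of which was 45.2. With the read-through row added, the sum was at 35.8 to 51.6 per kb over the 5319 exonic bases of CFI, a range that overlaps that of SERPING1. Over the 6142 exonic bases of both genes it was at 31.0 to 44.7, just below that range. Within each POLDIP2 KO library, SERPING1 was above the sum on either length, most narrowly in replicate 3, at 45.2 against 41.6 and 36.1. CD59 was at 267 to 551 times the level of the CFI row per kb in WT and at 43.0 to 87.5 times in POLDIP2 KO. Against both rows over the exons of CFI these ratios were 101 to 239.5 and 22.3 to 39.5.

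**Figure D3:**
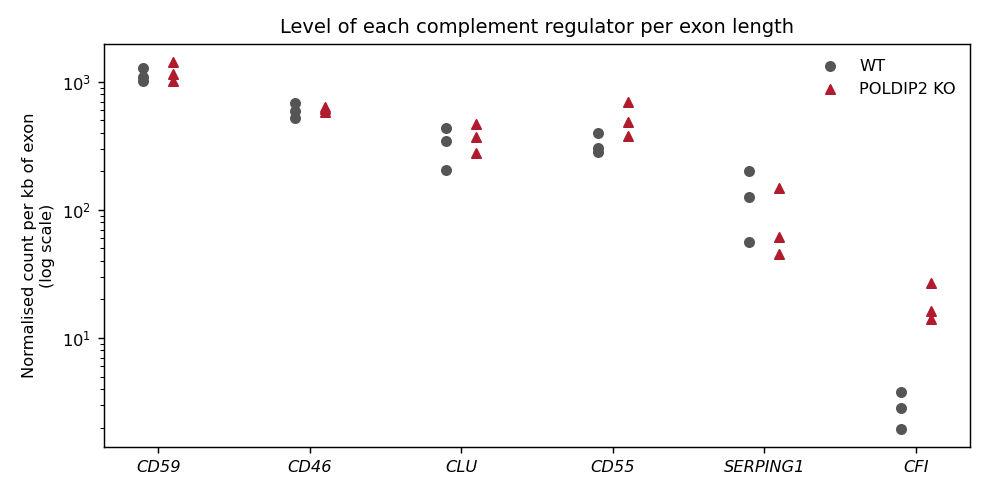
Normalised counts per kb of exon (vertical axis, log scale) of the 6 members above the filter in each of the 3 WT (grey circles) and 3 POLDIP2 KO (red triangles) libraries. CLU and CD55 overlap in level, the other neighbours are apart in both lines, and CFI, here without its read-through row, lies lowest, with its POLDIP2 KO libraries above those of WT.

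The 3 membrane regulators summed to 2047 ± 266 normalised counts per kb of exon in WT and 2324 ± 321 in POLDIP2 KO (SD, n = 3), and these sums overlapped between the lines. Their shares of the sum were compared next. CD55 contributed 17.0%, 14.9% and 15.8% in WT and 25.7%, 17.4% and 23.0% in POLDIP2 KO, with no overlap, for which an exact two-sided permutation test of 3 against 3 libraries gives its smallest p of 0.1. CD59 contributed 53.5% to 56.8% in WT and 48.2% to 53.3% in POLDIP2 KO, and CD46 27.4% to 31.6% and 21.7% to 29.3%. CD55 and CD46 lie in one cluster on chromosome 1, in which the 4 genes C4BPA, CR2, CR1 and CR1L were at or below 1.63 normalised counts in all 6 libraries, while CD46, CD55 and, lower, C4BPB passed the filter.

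Of 18 genes listed as other regulators and cofactors, 6 passed the filter, 7 were at 0 in every library and 0 were called by limma. PTX3, a pentraxin that recruits regulators to surfaces, had normalised counts of 34.0, 111 and 58.5 in WT and of 442, 582 and 427 in POLDIP2 KO. Its lines were apart and its log2 fold change was 2.96 (limma, adjusted p = 0.0723, or 0.0477 when blocked by replicate number, a comparison that called 0.204% of the genes tested), and DESeq2 called it (adjusted p = 1.53e-08). SUSD4 was the only one of the 6 to lie apart in the other direction, as 5.44% of tested genes did, with 13.6 to 16.1 in WT and 6.15 to 9.93 in POLDIP2 KO. Its log2 fold change was −0.72 (95% confidence interval −1.85 to 0.41, limma adjusted p = 0.9998). It rests on 5 to 17 reads a library and passed the filter of 10 through WT, as its mean in POLDIP2 KO was 8.62. VTN, vitronectin, an inhibitor of the terminal complex, differed by 0.89 on the log2 scale (95% confidence interval −0.17 to 1.94) and CD109, a GPI-anchored protease inhibitor, by 0.50 (0.05 to 0.95), and both had lines that overlapped. CSMD3 differed by 0.04 on the log2 scale. C4BPB, the beta chain of C4b-binding protein, differed far more between replicates than between lines, with 244, 20.1 and 53.3 in WT and 277, 23.6 and 70.5 in POLDIP2 KO. The alpha chain, which carries the cofactor activity, is encoded by C4BPA, which was at 0 throughout.

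The proteins on which the regulators act were compared in the same fit. Of 29 components 27 had a row under their symbol. C1R, which encodes the other target protease of SERPING1, and C1RL matched no row by symbol and could not be compared. Of those with a row 8 passed the filter and 0 were called by limma, while 3 lay apart higher (5.46% of tested genes did) and 1 lower (5.44%) in POLDIP2 KO. DESeq2 on recovered reads called C3, C1S and CFB (adjusted p = 6.16e-11, 0.000294 and 0.0291), where it called 1.69% of the genes tested. The normalised counts of C3 were 1039, 1328 and 2139 in WT and 5835, 7865 and 5701 in POLDIP2 KO (log2 fold change 2.16, limma adjusted p = 0.0507). C1S, a target protease of SERPING1, differed by 0.98 on the log2 scale (adjusted p = 0.160 by limma), CFB, the protease of the alternative pathway convertase, 1.54 (0.367) and COLEC12, a scavenger receptor with a collectin domain, −0.79 (0.570). Of 13 complement receptors 8 passed and 0 were called, and LRP1, with 38513 to 49034 in WT and 50819 to 67727 in POLDIP2 KO, was the only one whose lines lay apart, as 5.46% of tested genes did in that direction. C3AR1, C1QBP and ITGAM had the next smallest p values, and the lines of each overlapped.

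Set against C3 per kb, the membrane regulators summed to 26.2, 16.4 and 10.3 times its level in WT and to 5.34, 3.18 and 4.30 times in POLDIP2 KO. These ratios did not overlap. The membrane sums themselves overlapped and the C3 counts did not, so the separation of the ratios restates that of C3. C3 over the CFI row per kb was 31.6, 30.4 and 94.1 in WT and 31.1, 25.4 and 35.2 in POLDIP2 KO. Over both rows, on the exon length of CFI, it was lower, at 9.36, 11.5 and 40.9 in WT and 14.1, 13.2 and 11.8 in POLDIP2 KO. Counted either way these ratios of substrate to protease overlapped between the lines, and WT replicate 3 was the one library far from the rest.

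For each member tested, the 3 genes whose log2 values followed it most closely over the 6 libraries were ranked by Pearson's r. The 6 points share 2 lines and 3 replicate numbers, so r takes in the difference between lines as well as that between replicates, and 9 to 93 genes exceeded an r of 0.95 with a given member. CFI was followed most closely by VHL (r = 0.997), CCDC9B (0.993) and IL1B (0.991), and 45 genes exceeded 0.95. For CD55 these were ZNF280D (0.996), POFUT2 (0.994) and ANXA6 (0.992). CD59 was nearest to ZDHHC7 (0.995), N4BP2L1 (0.991) and S1PR3 (0.986), and CD46 to SLC38A9 (0.973), TP53BP2 (0.966) and APOBEC3C (0.965), the lowest values among the 6 members. SERPING1, which exceeded 0.95 with the most genes, 93, was nearest to MFGE8 (0.994), STARD13 (0.993) and PGAP4 (0.991). CLU was nearest to RPL36A-HNRNPH2 (0.987), HTD2 (0.985) and RRAS2 (0.982). No member was among the 3 genes nearest to another member, which says little where 14684 genes are ranked. Between members, r ran from −0.808 (CLU and CD59) to 0.702 (CD55 and CD59) over the 6 libraries.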

How the data were processed

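Polyadenylated RNA of 3 WT and 3 POLDIP2 KO replicates was sequenced with a stranded kit. The values analysed are a signal, the normalised count per gene that the authors deposited: per the labels and methods, transcript abundances from Salmon 1.8 were collapsed to GRCh38 genes (tximport), and the gene values were scaled by the size factors of DESeq2 1.34.0. The annotation release is not given in the sources used here. All 6 columns were mapped to samples by name, and 0 were left out.

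Symbols, positions and exon lengths (the union of a gene's exons) came from GENCODE release 44. Expression was compared with limma 3.58.1 (R 4.3.3; lmFit, eBayes with trend) on log2(normalised count + 1), which understates the change of low genes, for 14684 genes whose mean was 10 or more, with Benjamini-Hochberg adjustment over all of them. Genes were called at an adjusted p below 0.05 and a fold change over 1.5. Within each library every value was a whole multiple of its smallest value above 0 within 0.001 (100% of values), taken as 1 read. In WT replicate 2 and POLDIP2 KO replicate 3 that step was close to 1, at 1.00336 and 0.992953. There the largest distance from a whole multiple was 8.51e-05 and 0.000221. edgeR 4.0.16 and DESeq2 1.42.0 were run on these recovered reads. The fits were also run on simulated counts with the same dispersion for every gene and no replicate effect. The spread in these data differs between genes, so that run does not give the error rate here. Figures were drawn with Python 3.11.15 and matplotlib 3.10.9.

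Values centred within each line correlated between same-numbered libraries at 0.315, 0.137 and 0.129, above 0.1 in each case, so an alternative blocked on the replicate numbers. The other combinations gave −0.259 to 0.147. The highest of these, WT replicate 3 with POLDIP2 KO replicate 2, exceeded the values for replicates 2 and 3. The pairing by number is therefore an assumption, for which mainly replicate 1 speaks. The labels call the replicates biological and do not say that they are separate cultures, so p values measure the spread between these libraries. Nor do the labels say that libraries with the same number share a batch.

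The alternatives changed the pseudocount (0.5 and 5), the filter (none, or a mean of 50), the scaling (quantile normalisation, recentring) and the eBayes settings (robust, no trend), and added the block, edgeR with either scaling, DESeq2, and each library left out. Adding read-through rows to their genes, in the fits and in the levels per kb, was chosen after seeing the data. The members and lists were chosen with earlier results of these data known. Named were POLDIP2, the 7 members, other regulators past the filter, the 4 components and 4 receptors with the smallest p, and the 3 genes most like each member. C1R and C1RL were named because no row matched their symbols. The read-through genes, PLA2G12A, the cell type markers named and the silent genes of the CD55 cluster were named after their values were seen. One further regulator is not reported here.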

Additional observations from a re-analysis of the deposited data

How the results depend on the processing

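Over 84 recomputed differences of the 6 tested members with all libraries, 80 kept their direction and their side of the threshold. The other 4 were CFI with DESeq2 (log2 fold change 2.73, called), CFI (2.72) and CD55 (0.64) with DESeq2 and the replicate block, both called, and CD46 with quantile normalisation (−0.000636). Outside these 84, DESeq2 also called CFI with its read-through row added (2.42). The replicate block in limma changed no call of a member (CFI 2.64, adjusted p = 0.0591), and with pairing edgeR gave CFI 2.71 (adjusted p = 0.0801). Leaving out each library gave log2 fold changes of 2.37 to 2.85 for CFI, −1.10 to −0.18 for SERPING1, −0.0969 to 0.44 for CLU, −0.0654 to 0.13 for CD46, 0.40 to 0.84 for CD55 and −0.0398 to 0.20 for CD59 (as low as −0.0371 with its read-through row added), and adjusted p values for CFI of 0.179 to 0.281 by limma. CLU turned without WT replicate 1, CD46 without WT replicate 3 and CD59 without POLDIP2 KO replicate 1. The 25 genes called by limma became 16 with a mean of at least 50, 248 with DESeq2, 392 with DESeq2 and the block and 5 with edgeR and the block, and 0 to 5 when 1 library was left out (5 without WT replicate 1, 4 without POLDIP2 KO replicate 1 and 0 without each of the others, where 701 to 905 genes had an unadjusted p below 0.05). The cause of these differences was not tested. Other scalings moved the median log2 fold change of all genes to 0.0021 and 0.0036. Depth limits CFI in WT, with 10 to 20 reads a library, and CFHR3, with 1 read in all.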

Other observations

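C4BPB and C3AR1 varied with the replicate number more than with the line, and how many of all genes tested do so was not counted. C4BPB was highest in replicate 1 of both lines, at 244 and 277 normalised counts against at most 70.5 in the other 4 libraries, and the highest WT library was 12.1 times the lowest. C3AR1, the receptor of the C3a fragment, was highest in replicate 2 of both lines, with 52.2 in WT and 66.8 in POLDIP2 KO against at most 22.1 elsewhere. These values rest on 9 to 82 reads a library. ITGAM, a chain of complement receptor 3, did not follow the numbers, with 3.78, 28.1 and 37.6 in WT and 16.0, 6.51 and 5.96 in POLDIP2 KO.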
